A study of Homo sapiens with 36 samples.

Results

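The G2 and mitosis genes are 40 genes whose products take a cell from late G2 through spindle assembly, chromosome segregation and cytokinesis. They were found by matching the listed symbols to the Ensembl identifiers of the count table, and all 40 were present among its 61587 genes. PIF1 and KIF20A were put on the list because their counts fell with hydrogen peroxide in these same libraries, so their peroxide values and their differences between arsenite and peroxide are given as a description with no test, and counts of peroxide calls cover the other 38 genes. Their tests of arsenite against untreated use the same untreated libraries, so these tests are not free of that choice either. The rule gives no such reason for the other 38, but the whole list was drawn up with earlier results of these data known, so its counts describe these genes and are not independent evidence of a direction.

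RNA was sequenced from TXNL1 knockout HEK293T cells, a human embryonic kidney line that carries the SV40 large T antigen. The knockout came from an isogenic clone and was complemented with an empty vector (vector), with wild-type TXNL1 (WT), with the proteasome-binding mutant TXNL1 D162R R234D, or with TXNL1 SxxS, in which the cysteines of the thioredoxin active site are serines. Every line thus carries the knockout, and there is no parental line among the groups used here. Cells of each line received DMSO (untreated), arsenite at 100 µM or hydrogen peroxide at 600 µM, with exposure to the oxidants for 6 h. Each of the 12 combinations has 3 replicates, which gives 36 libraries and 12 libraries per treatment. The methods of the study state that cells in multiwell plates were treated in triplicate, and neither they nor the labels say whether the 3 came from separate passages or days, so p-values measure the spread between these samples.

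Cyclin A and cyclin B with CDK1 drive entry into mitosis, the aurora and polo kinases build the spindle, and the anaphase-promoting complex with CDC20 ends metaphase by marking securin and cyclin B for destruction. Most of these genes are transcribed in late S phase and G2 and are silent in resting cells. Their promoters are known for a cell cycle genes homology region (CHR), where the DREAM repressor complex and later the MYB-MuvB and FOXM1 activators act, and for CCAAT boxes, which bind the NF-Y factor.

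The promoters of 5 members are shown because these genes carry the main contrasts below: KIF20A and PIF1 as the genes chosen for their peroxide falls, CCNB1 and CENPA as genes lower with both oxidants, and PRC1 as a gene lower with peroxide and higher with arsenite. Sequences are from RefSeq (GRCh38.p14), run 5′ to 3′ in the direction of transcription from 250 bases before to 50 bases after the start, and have in capitals the CHR forms searched (TTTGAA, in some genes TTCGAA, and also TTTAAA) and every CCAAT, on either strand. An opposite-strand match of TTTGAA reads TTCAAA, and that of CCAAT reads ATTGG.
KIF20A, chr5:138178862-138179161, plus strand: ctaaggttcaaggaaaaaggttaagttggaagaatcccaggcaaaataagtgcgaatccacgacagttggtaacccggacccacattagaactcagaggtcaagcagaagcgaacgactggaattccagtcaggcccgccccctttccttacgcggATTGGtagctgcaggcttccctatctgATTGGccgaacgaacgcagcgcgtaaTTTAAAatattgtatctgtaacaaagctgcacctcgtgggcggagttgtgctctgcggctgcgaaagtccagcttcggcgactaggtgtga
PIF1, chr15:64825598-64825897, minus strand: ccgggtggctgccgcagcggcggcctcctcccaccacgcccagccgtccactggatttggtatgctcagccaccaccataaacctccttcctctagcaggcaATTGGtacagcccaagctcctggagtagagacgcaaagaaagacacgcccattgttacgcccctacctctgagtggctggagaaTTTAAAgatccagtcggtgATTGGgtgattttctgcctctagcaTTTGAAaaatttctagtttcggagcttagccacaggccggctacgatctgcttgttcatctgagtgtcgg
CCNB1, chr5:69166900-69167199, plus strand: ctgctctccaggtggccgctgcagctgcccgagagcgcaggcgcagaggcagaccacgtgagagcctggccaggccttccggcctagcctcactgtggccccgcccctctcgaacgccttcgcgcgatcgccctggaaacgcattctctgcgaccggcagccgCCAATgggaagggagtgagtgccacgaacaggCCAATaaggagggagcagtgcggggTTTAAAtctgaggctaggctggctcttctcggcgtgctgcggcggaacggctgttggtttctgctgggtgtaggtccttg
CENPA, chr2:26785806-26786105, plus strand: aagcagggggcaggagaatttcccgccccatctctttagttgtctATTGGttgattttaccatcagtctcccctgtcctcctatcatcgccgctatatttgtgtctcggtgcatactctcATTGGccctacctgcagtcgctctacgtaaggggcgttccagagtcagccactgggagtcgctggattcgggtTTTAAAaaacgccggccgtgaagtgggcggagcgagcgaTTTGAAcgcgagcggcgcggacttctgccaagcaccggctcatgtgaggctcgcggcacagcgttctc
PRC1, chr15:90994486-90994785, minus strand: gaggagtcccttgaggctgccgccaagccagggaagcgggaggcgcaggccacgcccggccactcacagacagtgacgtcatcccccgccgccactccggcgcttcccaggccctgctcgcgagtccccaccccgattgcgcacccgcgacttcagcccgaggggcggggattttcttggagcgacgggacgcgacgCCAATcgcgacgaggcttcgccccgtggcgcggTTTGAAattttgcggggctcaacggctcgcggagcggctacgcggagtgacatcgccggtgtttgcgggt

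KIF20A and CCNB1 each held TTTAAA, which starts 41 and 30 bases before the start of transcription. PIF1 and CENPA held both TTTAAA and TTTGAA, with TTTGAA at 20 and 18 bases before the start. In PRC1, TTTGAA stood 20 bases before the start and CCAAT 53 bases before it.

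Of the 40 members, 34 had a promoter window in RefSeq. At least 1 CHR form was found in 31 of the 34 (91.2%), against 29% of the 27305 genes with a window. Within 50 bases of the start a CHR form was found in 27 of the 34 (79.4%), against 9.87% of all. CCAAT was found in 30 of the 34 (88.2%) against 39.7%, and 18 (52.9%) held at least 2 in a window, against 12.9%. Both kinds were in 27 (79.4%), against 11.7%. TTTAAA and TTCGAA read the same on both strands, and a match of one kind can share a base with a match of the other. TTTGAA was in 23 (67.6%, against 18.2%), TTTAAA in 16 (47.1%, against 14.5%) and TTCGAA in 3 (8.82%, against 1.82%). In the plot of motif positions, the members' CHR forms peaked between 50 and 25 bases before the start and their CCAAT boxes between 75 and 50 bases before it.

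**Figure D1:**
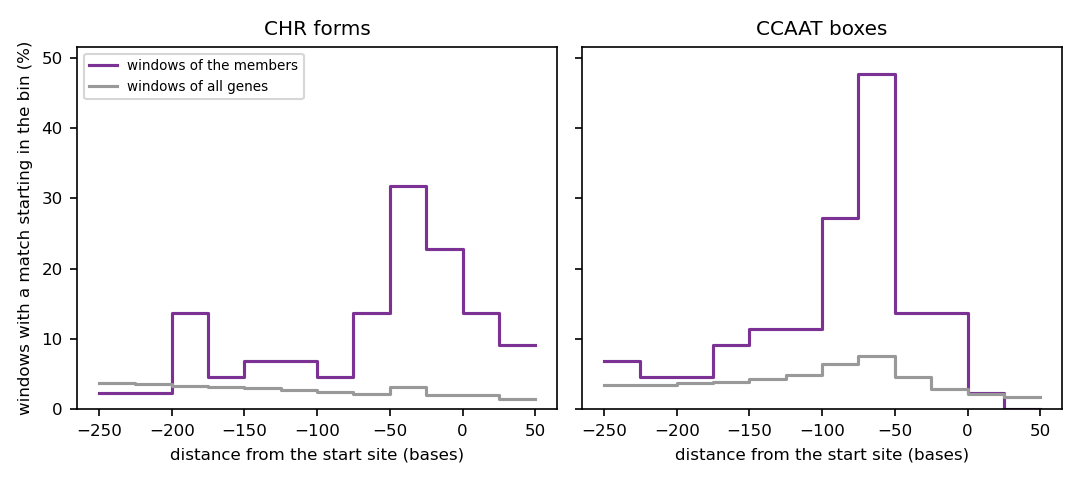
Share of promoter windows (percent, y axis) with a match that begins in each 25-base bin by distance from the start site (bases, x axis), for the 44 windows of 34 members and the 35116 windows of all genes. CHR forms of the members were most frequent from 50 to 25 bases before the start and CCAAT boxes from 75 to 50 bases before it.

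Libraries held 42072410 to 174119002 counts, with a median of 66016833. Levels are given as counts per 1000000 counts of the library (CPM), with library sizes scaled by edgeR's TMM factors. TXNL1 stood at 28.6 to 31.7 CPM in the untreated vector line and at 51.7 to 66.2 CPM in the untreated complemented lines, which checks the complementation and not the knockout, since a gene edit can leave the transcript in place. VIM, KRT18 and KRT8 were detected in every library, PAX2 reached at most 0.84 CPM, and the blood, endothelial and hepatocyte markers PTPRC, CDH5 and ALB stayed at or under 0.30 CPM. A pair of libraries stood apart from their replicates: WT peroxide replicate 2 and WT arsenite replicate 1 had a standard deviation of log2 CPM around their group median of 0.624 and 0.546 over 15674 genes, against 0.082 to 0.193 in the other 34. Among the members, KIF14 and ANLN were 1.45 and 1.34 lower (log2) in that peroxide library than in the mean of the other 2 replicates, while AURKB, PTTG1 and UBE2C were 0.70, 0.67 and 0.62 higher. In the arsenite library ANLN and KIF14 were 1.25 and 1.21 lower, and PTTG1 and UBE2C were 0.81 and 0.50 higher. Both libraries deviated in the same direction for these genes, the cause was not tested, and results are given with and without them where they matter.

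With hydrogen peroxide, every one of the 38 genes counted had a mean below that of untreated cells, and the falls were moderate in size. Averaged over the lines, 35 of 38 were called lower and 0 higher, and the members' median was -0.34 on the log2 scale. The test was edgeR's quasi-likelihood test on all 22486 genes with at least 10 counts over the untreated vector libraries, a filter that all 40 members passed, with Benjamini-Hochberg adjustment and a call at an adjusted p under 0.05. Of all genes tested, 5.3% were called lower and 6.78% higher, and their median was 0.005. DESeq2 also called 0 members higher. CDK1, CDC25B and ANLN missed the threshold, at -0.05 ± 0.023, adjusted p = 0.203, -0.05 ± 0.029, adjusted p = 0.253 and -0.28 ± 0.11, adjusted p = 0.106 (log2 fold change ± SE). In bulk RNA, fewer cells in G2 and mitosis and less of the RNA in each such cell cannot be told apart.

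With arsenite the same genes split. Of the 40, 16 were called lower, 16 higher and 8 in neither direction, and their median was -0.02 on the log2 scale. The 16 lower include KIF20A and the 16 higher include PIF1, which were chosen by their falls from these untreated libraries. Arsenite moved far more of the transcriptome, with 31.5% of all genes called lower and 37.4% higher at a median of 0.06, so 16 of 40 in each direction stood near the background. The members' spread was wide, from -1.10 for CENPA to 2.13 for PIF1. Without the 2 outlying WT libraries 20 were lower and 16 higher, and the 4 added falls were CDC20, BIRC5, PTTG1 and KIF14.

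The direct comparison of arsenite with peroxide, in which the untreated libraries cancel, called 26 of 38 members higher with arsenite and 9 lower. The median difference was 0.35 on the log2 scale, against 0.06 for all genes tested, of which 37.3% were called higher and 31.3% lower. The 3 members in neither direction were KIF11, KIF4A and GTSE1. Without the 2 outlying WT libraries KIF11 was called lower with arsenite than with peroxide (-0.11, adjusted p = 0.000166), which makes 10 lower and 26 higher. Of the 38, 14 were lower with peroxide and higher with arsenite, 13 were lower with both, and 8 were lower with peroxide and not called with arsenite. The share of all genes in these joint classes was not counted. Of all genes, 37.4% were called higher and 31.5% lower with arsenite, so the split into 14 and 13 stood near that background. CDC25B was called higher with arsenite alone, and CDK1 and ANLN lower with arsenite alone. Without the outlying libraries CDC25B (-0.08, adjusted p = 0.0143) and ANLN (-0.21, adjusted p = 1.9e-07) were also called lower with peroxide, which makes 37 of 38. Both oxidants are set against the same untreated libraries.

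**Figure D2:**
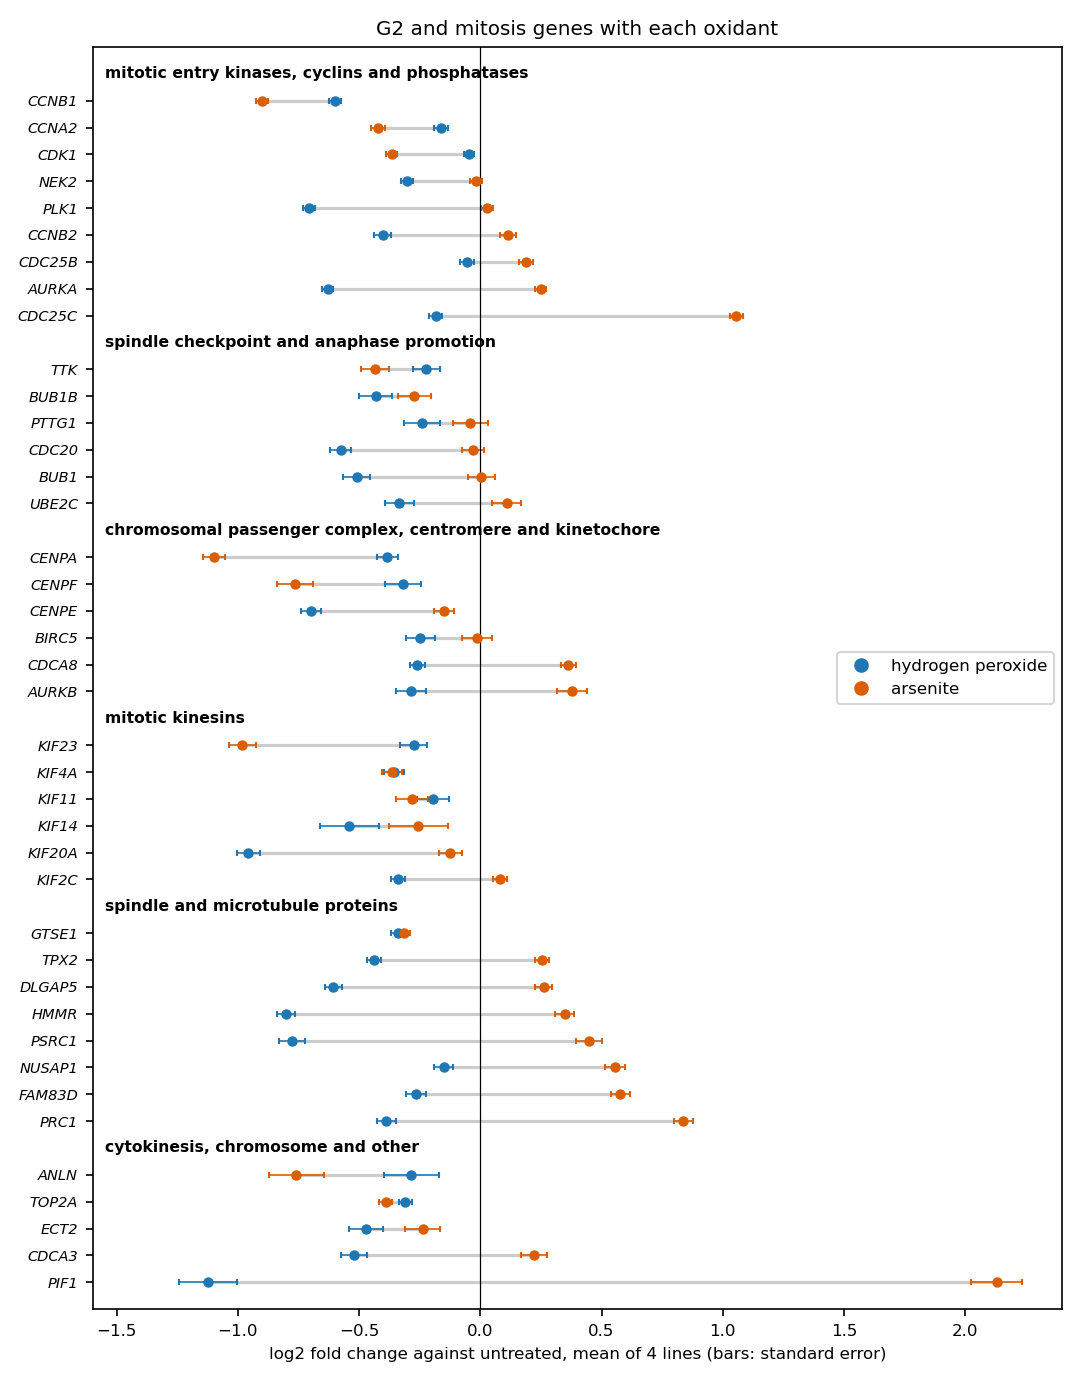
Log2 fold change against untreated cells (x axis), averaged over 4 lines, for each member (y axis, grouped by role), with peroxide in blue, arsenite in orange and bars for the standard error. All peroxide points lie left of 0, while arsenite points run from -1.10 for CENPA to 2.13 for PIF1.

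The genes of mitotic entry are CDK1, its cyclin partners CCNA2, CCNB1 and CCNB2, the CDC25B and CDC25C phosphatases that activate it, and the kinases PLK1, AURKA and NEK2. Of these 9, 7 were lower with peroxide, where 5.3% of all genes were called lower. With arsenite 3 were lower and 4 higher, near the shares of all genes (31.5% lower and 37.4% higher). CDC25C had the largest difference between the oxidants in this group. Its untreated level was 23.9, 23.9 and 23.7 CPM for vector, 24.4, 25.1 and 26.4 for WT, 23.3, 23.1 and 22.7 for D162R R234D and 24.9, 23.7 and 25.9 for SxxS. With peroxide CDC25C measured 20.1, 21.3 and 21.8 CPM for vector, 21.6, 21.8 and 20.5 for WT, 19.9, 21.2 and 21.2 for D162R R234D and 21.6, 22.5 and 22.8 for SxxS. With arsenite CDC25C measured 49.4, 50.9 and 53.8 CPM for vector, 46.1, 50.1 and 51.9 for WT, 51.5, 50.8 and 51.2 for D162R R234D and 51.9, 50.2 and 47.5 for SxxS. In all 4 lines the peroxide values lay just below the untreated values and the arsenite values far above both, with no overlap. CDC25C changed by -0.18 ± 0.027, adjusted p = 1.96e-05 with peroxide and by 1.06 ± 0.027, adjusted p = 5.18e-24 with arsenite, which is 2.08 times the untreated level. CDC25B, the other phosphatase, had the smallest difference in this group. Before treatment CDC25B stood at 49.6, 46.9 and 47.9 CPM for vector, 51.1, 46.4 and 46.2 for WT, 45.5, 46.7 and 46.4 for D162R R234D and 48.4, 48.8 and 50.5 for SxxS. Peroxide libraries gave CDC25B 46.8, 42.8 and 48.3 CPM for vector, 45.04, 52.3 and 46.5 for WT, 43.9, 41.9 and 43.9 for D162R R234D and 45.8, 46.6 and 49.5 for SxxS. Arsenite libraries gave CDC25B 55.9, 55.5 and 55.0 CPM for vector, 54.9, 52.8 and 52.7 for WT, 55.1, 56.3 and 50.8 for D162R R234D and 55.4, 56.0 and 53.5 for SxxS. The peroxide values overlapped the untreated values in all lines but D162R R234D, and the arsenite values lay above both in every line. With arsenite CDC25B rose by 0.19 ± 0.029, adjusted p = 1.4e-06.

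CCNB1, the cyclin that accompanies CDK1 into mitosis, was lower with both oxidants and lower with arsenite than with peroxide. The lowest, median and highest of 12 libraries were 333, 349.9 and 366 CPM in untreated cells, 216, 227 and 251 with peroxide and 175, 185 and 208 with arsenite. None of these ranges overlap. The log2 fold change of CCNB1 was -0.60 ± 0.024, adjusted p = 4.05e-17 with peroxide and -0.90 ± 0.024, adjusted p = 1.14e-23 with arsenite. CCNB2, a second B-type cyclin, ran from 80.5 to 93.7 CPM untreated through 58.9 to 75.9 with peroxide to 87.2 to 112 with arsenite. It fell with peroxide (-0.40 ± 0.034, adjusted p = 1.12e-09) and rose slightly with arsenite (0.11 ± 0.034, adjusted p = 0.00422), although its arsenite values cleared the untreated values in only 2 lines. The 2 cyclins thus moved in opposite directions with arsenite. CCNA2, the cyclin of S phase and G2, measured 214 to 231 CPM untreated, 169 to 206 with peroxide and 152 to 179.7 with arsenite, and was called lower with both (-0.16 ± 0.029 and -0.42 ± 0.029). CDK1 itself measured 114 to 129.9 CPM untreated, 102 to 122 with peroxide and 85.6 to 98.0 with arsenite, where it fell (-0.37 ± 0.023, adjusted p = 8.55e-15).

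Of the kinases, PLK1 had the largest peroxide fall, with a lowest, median and highest level of 248, 253 and 282 CPM in untreated cells, 143, 156 and 176 with peroxide and 249.5, 260.0 and 274 with arsenite. Peroxide and untreated values did not overlap, and arsenite values overlapped the untreated ones in 3 of 4 lines. PLK1 changed by -0.71 ± 0.025, adjusted p = 3.07e-18 with peroxide and by 0.03 ± 0.025, adjusted p = 0.343 with arsenite. AURKA, the kinase of centrosomes and spindle poles, gave 126, 135 and 141 CPM untreated, 82.8, 85.8 and 95.4 with peroxide and 150.2, 161 and 171 with arsenite. The treated ranges lay on opposite sides of the untreated range, and the log2 fold changes were -0.63 ± 0.023, adjusted p = 6.42e-18 and 0.25 ± 0.023, adjusted p = 9.18e-11. NEK2, which separates centrosomes, fell with peroxide (-0.30 ± 0.024, adjusted p = 4.28e-10) and stood at -0.02 ± 0.024 with arsenite, adjusted p = 0.537.

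The spindle checkpoint and anaphase genes are the checkpoint kinases BUB1 and TTK and their partner BUB1B, the anaphase-promoting complex activator CDC20 with its conjugating enzyme UBE2C, and the securin gene PTTG1. All 6 were lower with peroxide, where 5.3% of all genes were. With arsenite TTK and BUB1B were lower and the other 4 were not called, where 31.5% of all genes were lower and 37.4% higher. CDC20 differed most between the oxidants. Its values in untreated cells were 276, 274 and 271 CPM for vector, 268, 265 and 267 for WT, 263, 281 and 302 for D162R R234D and 268, 279 and 283 for SxxS. After peroxide CDC20 read 167, 167 and 173 CPM for vector, 189, 263 and 192 for WT, 171, 177 and 178 for D162R R234D and 185, 173 and 186 for SxxS. After arsenite CDC20 read 265, 255 and 260.0 CPM for vector, 356, 279.8 and 278 for WT, 244, 252 and 240.1 for D162R R234D and 261, 280.2 and 267 for SxxS. Peroxide values lay below untreated values in all lines, whereas arsenite values were below them in vector and D162R R234D, above them in WT and overlapping in SxxS. WT arsenite replicate 1 and WT peroxide replicate 2 were the highest of their groups. CDC20 changed by -0.58 ± 0.044, adjusted p = 1.35e-10 with peroxide and measured -0.03 ± 0.044, adjusted p = 0.548 with arsenite, which became -0.08 with adjusted p = 0.00038 without those 2 libraries. BUB1B, at the other end, had untreated values of 114, 114 and 115 CPM for vector, 122, 125 and 118 for WT, 126, 119.7 and 109 for D162R R234D and 122, 118 and 119.7 for SxxS. Peroxide-treated cells had BUB1B at 91.2, 93.1 and 89.1 CPM for vector, 87.9, 54.4 and 86.7 for WT, 95.2, 95.3 and 91.1 for D162R R234D and 89.4, 94.2 and 89.5 for SxxS. Arsenite-treated cells had BUB1B at 95.7, 102 and 97.8 CPM for vector, 62.0, 105 and 110.5 for WT, 105, 102 and 99.1 for D162R R234D and 98.0, 98.5 and 100.4 for SxxS. Both treatments lay below untreated in all 4 lines, and arsenite lay above peroxide in all but WT. BUB1B changed by -0.43 ± 0.068, adjusted p = 4.29e-05 and -0.27 ± 0.068, adjusted p = 0.000775 with peroxide and arsenite.

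Among the other 4, TTK fell with both oxidants and further with arsenite (-0.22 ± 0.057 with peroxide and -0.43 ± 0.057 with arsenite). BUB1 fell with peroxide (-0.51 ± 0.056, adjusted p = 1.36e-07) and was at 0.00 ± 0.056, adjusted p = 0.96 with arsenite. Its levels were 149 to 176 CPM untreated, 79.1 to 124 with peroxide and 116 to 177 with arsenite. UBE2C ran from 110.4 to 152 CPM untreated to 90.9 to 148 with peroxide, where the highest value was in WT peroxide replicate 2, and to 126 to 185 with arsenite. Its log2 fold change was -0.33 ± 0.06, adjusted p = 0.00021 with peroxide and 0.11 ± 0.059, adjusted p = 0.104 with arsenite. PTTG1 fell with peroxide (-0.24 ± 0.074, adjusted p = 0.0292) and was at -0.04 ± 0.073, adjusted p = 0.629 with arsenite, or -0.14 with adjusted p = 6.41e-06 without the outlying libraries.

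AURKB, BIRC5 (survivin) and CDCA8 (borealin) are members of the chromosomal passenger complex, which corrects faulty attachments and guides cytokinesis. CENPA is the histone H3 variant that marks the centromere, CENPE a kinetochore motor and CENPF a kinetochore protein. All 6 were lower with peroxide, where 5.3% of all genes were. With arsenite CENPA, CENPF and CENPE were lower and AURKB and CDCA8 higher, where 31.5% of all genes were lower and 37.4% higher. CENPA in untreated cells measured 25.4, 25.4 and 25.2 CPM for vector, 23.5, 25.9 and 22.1 for WT, 26.2, 24.2 and 27.5 for D162R R234D and 25.3, 24.3 and 24.5 for SxxS. Peroxide gave CENPA values of 19.6, 17.3 and 18.3 CPM for vector, 18.4, 21.0 and 18.7 for WT, 17.8, 17.9 and 19.8 for D162R R234D and 21.4, 19.0 and 20.3 for SxxS. Arsenite gave CENPA values of 12.9, 11.4 and 11.1 CPM for vector, 14.2, 10.7 and 10.8 for WT, 11.1, 11.4 and 11.8 for D162R R234D and 11.9, 11.2 and 11.2 for SxxS. The 3 treatments formed 3 separate levels in every line, with arsenite lowest. CENPA fell to 0.766 times the untreated level with peroxide (-0.38 ± 0.044, adjusted p = 2.66e-07) and to 0.467 times with arsenite (-1.10 ± 0.044, adjusted p = 2.92e-19). BIRC5 differed least between the oxidants in this group. Untreated BIRC5 values were 219.8, 215 and 215 CPM for vector, 202, 222 and 221 for WT, 203, 213 and 250.5 for D162R R234D and 201, 192 and 199 for SxxS. BIRC5 with peroxide came to 173, 175 and 172 CPM for vector, 167, 265 and 176 for WT, 164, 168 and 177 for D162R R234D and 176, 161 and 180.2 for SxxS. BIRC5 with arsenite came to 203, 196 and 204 CPM for vector, 321, 217 and 223 for WT, 184, 197 and 199 for D162R R234D and 193, 202 and 203 for SxxS. In WT all 3 treatments overlapped, with WT peroxide replicate 2 and WT arsenite replicate 1 the highest of their groups, and in the other lines peroxide lay below untreated. BIRC5 was called lower with peroxide (-0.25 ± 0.061, adjusted p = 0.00604), and its value with arsenite was -0.01 ± 0.061, adjusted p = 0.853.

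AURKB, the kinase of the complex, measured 113, 122 and 142 CPM untreated as lowest, median and highest, 88.3, 95.2 and 148 with peroxide and 144, 154 and 226 with arsenite. Arsenite values were above untreated values in all 4 lines, and peroxide values were below them in all but WT, where replicate 2 was high. AURKB changed by -0.29 ± 0.062, adjusted p = 0.00182 and 0.38 ± 0.062, adjusted p = 3.77e-06. CDCA8 ran over 79.9 to 88.7 CPM untreated, 67.2 to 73.6 with peroxide and 90.5 to 118 with arsenite. The ranges of CDCA8 did not overlap over all 36 libraries, and its log2 fold changes were -0.26 ± 0.031, adjusted p = 5.64e-07 and 0.36 ± 0.031, adjusted p = 1.33e-11. CENPE fell mainly with peroxide (-0.70 ± 0.041, against -0.15 ± 0.041 with arsenite) and CENPF mainly with arsenite (-0.77 ± 0.074, against -0.32 ± 0.074 with peroxide).

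Of the mitotic kinesins, KIF20A works at the central spindle in cytokinesis and was chosen for its fall with peroxide. Untreated KIF20A levels were 115, 108 and 109 CPM for vector, 121, 116 and 119 for WT, 118, 111 and 104 for D162R R234D and 117, 114 and 117 for SxxS. KIF20A with peroxide read 55.8, 55.8 and 60.1 CPM for vector, 60.2, 47.0 and 61.9 for WT, 57.4, 59.0 and 59.4 for D162R R234D and 59.7, 63.1 and 66.0 for SxxS. KIF20A with arsenite read 103, 109 and 104 CPM for vector, 78.6, 117 and 114 for WT, 106, 102 and 102 for D162R R234D and 106, 105 and 108 for SxxS. Peroxide values lay in the range of 47.0 to 66.0 CPM, below every untreated value, with the lowest in WT peroxide replicate 2. Arsenite values overlapped untreated values in all lines but SxxS, and the lowest was in WT arsenite replicate 1. The log2 fold change was -0.96 ± 0.048 with peroxide, with no test, or 0.515 times the untreated level. With arsenite KIF20A was slightly lower, at -0.12 ± 0.048, adjusted p = 0.0218. That test uses the untreated libraries by which KIF20A was chosen, so it is not free of the choice.

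KIF4A, a chromosome-bound kinesin, had the smallest difference between the oxidants. Its untreated values were 71.2, 69.5 and 69.7 CPM for vector, 69.5, 72.8 and 72.0 for WT, 71.3, 69.6 and 67.5 for D162R R234D and 67.7, 69.8 and 69.7 for SxxS. Peroxide put KIF4A at 55.2, 59.9 and 56.7 CPM for vector, 52.3, 43.0 and 54.4 for WT, 55.4, 57.1 and 58.3 for D162R R234D and 55.3, 54.9 and 54.3 for SxxS. Arsenite put KIF4A at 54.7, 58.3 and 55.5 CPM for vector, 40.5, 55.9 and 57.0 for WT, 53.9, 54.4 and 56.2 for D162R R234D and 54.2, 58.0 and 55.2 for SxxS. Both oxidants lay below untreated in all 4 lines and overlapped each other in all 4. KIF4A changed by -0.36 ± 0.042, adjusted p = 4.24e-07 with peroxide and by -0.36 ± 0.042, adjusted p = 6.96e-09 with arsenite, and the difference was -0.01 ± 0.042, adjusted p = 0.902. KIF23, a motor of the centralspindlin complex, gave 80.7, 90.2 and 96.7 CPM untreated, 50.2, 75.7 and 80.4 with peroxide and 35.3, 45.7 and 51.5 with arsenite. It fell mildly with peroxide (-0.28 ± 0.054, adjusted p = 0.000728) and to 0.506 times the untreated level with arsenite (-0.98 ± 0.055, adjusted p = 8.82e-16). KIF2C, a kinesin that takes microtubule ends apart, fell with peroxide (-0.34 ± 0.029) and rose slightly with arsenite (0.08 ± 0.029, adjusted p = 0.0134), and its arsenite values cleared untreated in 2 lines. KIF11, the motor that keeps spindle poles apart, was lower with both (-0.20 ± 0.065 and -0.28 ± 0.065). KIF14, a kinesin of cytokinesis, was lower with peroxide (-0.54 ± 0.12, adjusted p = 0.00291) and at -0.26 ± 0.12, adjusted p = 0.0637 with arsenite, a value that passed the threshold without the outlying libraries (-0.20, adjusted p = 0.000268).

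The 8 listed spindle and microtubule genes moved in opposite directions with the oxidants, apart from GTSE1. All 8 were lower with peroxide, and 7 of the 8 were higher with arsenite, where 37.4% of all genes were called higher. The rises do not extend to mitosis genes at large. Of 57 such genes outside the list, 22 were higher and 27 lower with arsenite. Spindle and microtubule genes among these 57 were not counted apart, so whether the rises are particular to the 8 listed genes was not tested. PRC1, which bundles the microtubules of the central spindle, had the largest difference. Untreated PRC1 stood at 186, 196 and 189 CPM for vector, 198, 205 and 203 for WT, 203, 207 and 195 for D162R R234D and 192, 191 and 184 for SxxS. Peroxide lowered PRC1 to 152, 149 and 159 CPM for vector, 149, 125 and 145 for WT, 152, 149.8 and 158 for D162R R234D and 150.5, 154 and 153 for SxxS. Arsenite raised PRC1 to 336, 359 and 349 CPM for vector, 261, 357 and 360.1 for WT, 379, 372 and 362 for D162R R234D and 359.6, 358 and 350.2 for SxxS. The 3 treatments did not overlap in any line, and WT arsenite replicate 1 was the lowest arsenite library. PRC1 changed by -0.39 ± 0.038, adjusted p = 1.71e-08 with peroxide and by 0.84 ± 0.038, adjusted p = 5.07e-18 with arsenite, which is 1.79 times the untreated level. Genes that overlap PRC1 share 61.9% of its exon bases, and for NUSAP1 the share is 86.8%, so both counts are uncertain where reads could be split. GTSE1, a protein of growing microtubule ends, differed least. GTSE1 before treatment was at 91.0, 94.0 and 93.7 CPM for vector, 95.4, 91.0 and 92.6 for WT, 90.8, 97.0 and 99.7 for D162R R234D and 95.3, 87.1 and 94.9 for SxxS. With peroxide GTSE1 came to 72.1, 69.4 and 73.3 CPM for vector, 74.7, 69.6 and 75.5 for WT, 76.4, 76.7 and 72.7 for D162R R234D and 78.7, 73.1 and 73.5 for SxxS. With arsenite GTSE1 came to 77.9, 77.1 and 72.5 CPM for vector, 83.0, 75.1 and 77.2 for WT, 69.9, 72.7 and 71.2 for D162R R234D and 76.0, 73.6 and 75.8 for SxxS. Both oxidants were below untreated in all lines and overlapped each other. The values of GTSE1 were -0.34 ± 0.026, adjusted p = 1.35e-10 and -0.32 ± 0.026, adjusted p = 6.65e-12, with a difference of 0.03 ± 0.026, adjusted p = 0.387.

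HMMR, a spindle assembly protein also known as a hyaluronan receptor, had the largest tested peroxide fall of the members. Its lowest, median and highest levels were 77.9, 85.4 and 98.9 CPM untreated, 40.6, 50.03 and 54.2 with peroxide and 99.4, 108 and 116 with arsenite. The ranges did not overlap, and the log2 fold changes were -0.80 ± 0.038, adjusted p = 2.96e-15 and 0.35 ± 0.037, adjusted p = 2.09e-09. HMMR-AS1, whose exons overlap those of HMMR on the other strand, changed by -0.87 with peroxide and 0.27 with arsenite, and whether the counting used strand is not given in the sources used here. PSRC1, a microtubule-binding protein, gave 39.5, 42.5 and 49.4 CPM untreated, 21.1, 24.3 and 33.0 with peroxide and 53.7, 56.9 and 78.0 with arsenite. It too had separate ranges, at -0.78 ± 0.054, adjusted p = 2.47e-11 and 0.45 ± 0.053, adjusted p = 1.46e-08. TPX2, the activator of AURKA on the spindle, ran over 379 to 417 CPM untreated, 249.5 to 303 with peroxide and 399 to 488 with arsenite. DLGAP5, which stabilises kinetochore fibres, ran over 93.7 to 118, 55.7 to 69.7 and 105 to 128 CPM. Both were lower with peroxide (-0.44 ± 0.029 and -0.61 ± 0.035) and higher with arsenite (0.26 ± 0.029 and 0.26 ± 0.034), and their arsenite values cleared untreated in 3 of 4 lines. FAM83D and NUSAP1, both spindle proteins, had weak peroxide falls (-0.27 ± 0.04 and -0.15 ± 0.039) and larger arsenite rises (0.58 ± 0.04 and 0.56 ± 0.039). FAM83D measured 52.0 to 60.2 CPM untreated, 39.0 to 49.5 with peroxide and 61.8 to 93.0 with arsenite. NUSAP1 measured 139 to 154, 108 to 143 and 157 to 239 CPM for the same treatments.

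PIF1, a DNA helicase, was the least expressed member and the other gene chosen for its peroxide fall. PIF1 in untreated cells had 1.60, 2.15 and 2.17 CPM for vector, 2.19, 1.69 and 1.59 for WT, 2.395, 1.75 and 2.24 for D162R R234D and 2.94, 2.32 and 1.94 for SxxS. PIF1 after peroxide had 1.11, 0.768 and 0.646 CPM for vector, 1.46, 1.06 and 0.769 for WT, 0.657, 0.957 and 1.16 for D162R R234D and 1.02, 1.22 and 0.759 for SxxS. PIF1 after arsenite had 8.08, 8.39 and 9.05 CPM for vector, 13.3, 8.77 and 8.90 for WT, 8.30, 8.75 and 7.998 for D162R R234D and 9.43, 8.87 and 9.32 for SxxS. Peroxide values were 0.646 to 1.46 CPM and lay below the untreated values in every line, and all arsenite values lay above them, the highest in WT arsenite replicate 1. The log2 fold change was -1.12 ± 0.12 with peroxide, with no test, and 2.13 ± 0.11, adjusted p = 4.31e-17 with arsenite, or 4.38 times the untreated level. The arsenite test uses the untreated libraries by which PIF1 was chosen. TOP2A, the topoisomerase that untangles sister chromatids, differed least between oxidants among the cytokinesis and chromosome genes. Untreated TOP2A counted 414, 416 and 413 CPM for vector, 431, 432 and 421 for WT, 456, 423 and 379.8 for D162R R234D and 429, 424 and 426 for SxxS. TOP2A with peroxide counted 353, 359 and 339 CPM for vector, 327, 284 and 336 for WT, 350.0, 344 and 348 for D162R R234D and 347, 356 and 349.5 for SxxS. TOP2A with arsenite counted 303, 341 and 317 CPM for vector, 321, 319 and 319 for WT, 332, 333 and 333 for D162R R234D and 321, 302 and 322 for SxxS. Both oxidants were below untreated everywhere, and arsenite lay below peroxide in D162R R234D and SxxS. TOP2A changed by -0.31 ± 0.029, adjusted p = 6.08e-09 and -0.39 ± 0.029, adjusted p = 4.45e-13. CDCA3, a cell division cycle-associated protein, gave 35.2, 37.5 and 44.5 CPM untreated as lowest, median and highest, 23.9, 25.4 and 38.8 with peroxide and 40.6, 42.9 and 58.6 with arsenite. It fell with peroxide (-0.52 ± 0.055, adjusted p = 7.14e-08) and rose with arsenite (0.22 ± 0.055, adjusted p = 0.000749). ANLN, a scaffold of the cytokinetic ring, fell with arsenite (-0.76 ± 0.11, adjusted p = 8.77e-07), and its peroxide value passed the threshold without the outlying libraries (-0.21, adjusted p = 1.9e-07). ECT2, which activates RhoA at the division site, was lower with both (-0.47 ± 0.071 and -0.24 ± 0.071).

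**Figure D3:**
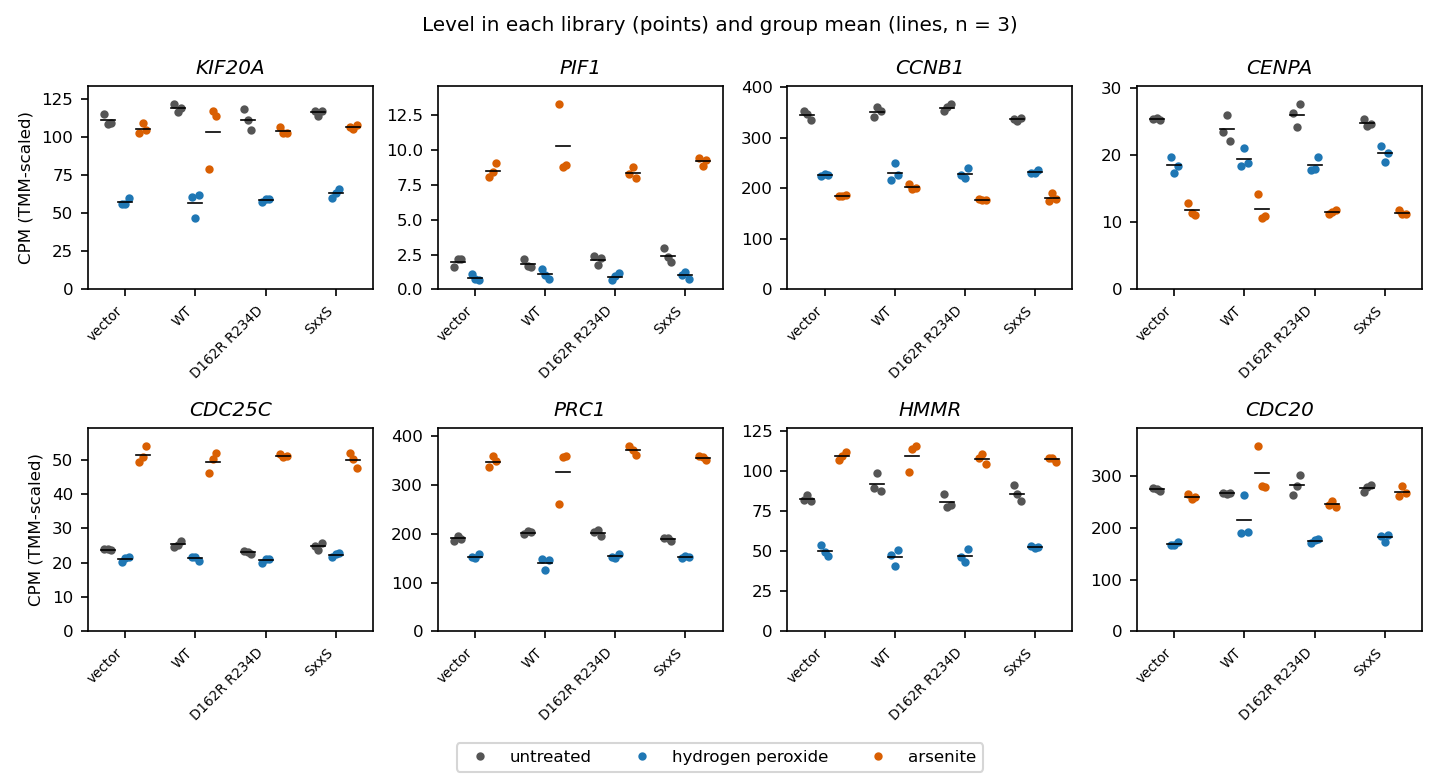
CPM (y axis) of 8 members in each library (points) by line (x axis) and treatment (colour), with lines at the mean of 3 replicates. CCNB1 and CENPA have arsenite lowest, CDC25C, PRC1, HMMR and PIF1 have arsenite highest and peroxide lowest, and KIF20A and CDC20 are far lower with peroxide than with arsenite, whose points lie near the untreated ones, apart from WT arsenite replicate 1 and, for CDC20, WT peroxide replicate 2.

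Per length, the untreated vector line had its highest member levels at CCNB1 (142 ± 3.58 RPKM, which is CPM per kilobase of exon, ± SD, n = 3), CDC20 (136 ± 1.14), TPX2 (106 ± 0.64) and UBE2C (101 ± 2.24). The lowest were KIF14 (6.09 ± 0.25) and PIF1 (0.423 ± 0.07). Summed over the 38 members other than PIF1 and KIF20A, the level per library was 5152 to 5399 CPM in the 12 untreated libraries, 3773 to 4111 with peroxide and 4920 to 5243 with arsenite. The untreated and peroxide sums did not overlap. The arsenite sums overlapped the untreated ones only across lines, and within each line every arsenite sum lay below every untreated sum. The gap was narrowest in vector, with a highest arsenite sum of 5147.2 CPM and a lowest untreated sum of 5151.7 CPM. In each peroxide library 32 to 38 of the 38 were below the untreated mean of their line, in each arsenite library 17 to 23 were, and in each untreated library 13 to 26 were.

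**Figure D4:**
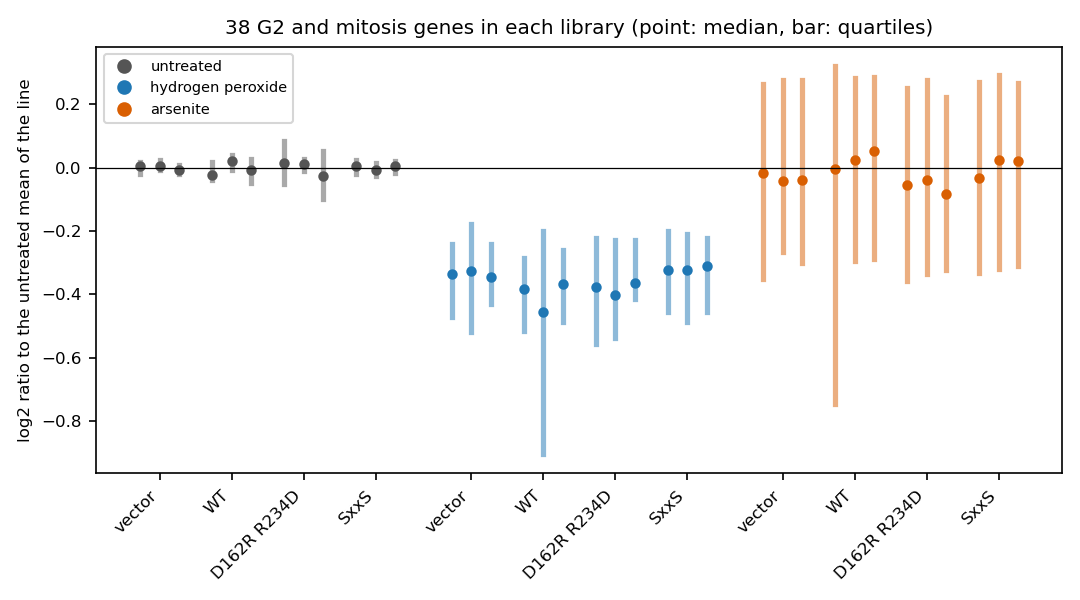
Median (points) and quartiles (bars) over 38 members (PIF1 and KIF20A left out) of the log2 ratio to the untreated mean of the line (y axis), for each of 36 libraries by line (x axis) and treatment (colour). Peroxide medians lie between -0.46 and -0.31 and arsenite medians between -0.08 and 0.05, with wider bars for arsenite, and the widest bars are in WT peroxide replicate 2 and WT arsenite replicate 1.

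Within single lines the peroxide calls were fewer. Of the 38 members, the vector line had 19 lower, WT 26, D162R R234D 18 and SxxS 18, where 0.636%, 2.26%, 0.525% and 0.609% of all genes were lower. Without the 2 outlying WT libraries each count rose, to 36 for SxxS and 34 for each of the other lines. In fits on only the 6 libraries of each comparison, the count was 36 in vector, 24 in D162R R234D and 35 in SxxS, and 0 in WT, where WT peroxide replicate 2 is 1 of the 6. Same-numbered untreated and peroxide libraries of D162R R234D correlated weakly (r from 0.127 to 0.315), and whether they were paired was not tested. With the replicate block that line had 18 lower in the fit on all libraries and 32 in a fit on its own 6. In the fit on all libraries, 15 of the 38 were lower in each of the 4 lines: CCNB1, CCNB2, PLK1, AURKA, NEK2, CDC20, CENPE, KIF2C, TPX2, HMMR, DLGAP5, PRC1, PSRC1, GTSE1 and TOP2A. That number was 32 without the outlying libraries, 8 without the filter on low counts and, through WT, 0 in the fits on only the groups compared. The share of all genes lower in all 4 lines was not counted. With peroxide, 27 of the 38 had no treated value reaching the untreated values in any line, against 1.07% of all genes. In the other direction 0 of 38 had all peroxide values above the untreated ones. Of all 22486 genes 258 did so in all 4 lines, so that 0 stood near the background.

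Arsenite calls were similar in number across lines. In vector 12 members were lower and 12 higher (21.4% and 22.1% of all genes), in WT 15 and 15 (24.9% and 28.7%), in D162R R234D 11 and 12 (21.5% and 22.5%), and in SxxS 11 and 13 (21.5% and 22.1%). CDK1, CCNA2, CCNB1, TTK, CENPA, CENPF, KIF23, KIF4A, GTSE1, ANLN and TOP2A were lower in all 4 lines. CDC25B, CDC25C, AURKA, CDCA8, TPX2, HMMR, NUSAP1, PRC1, PSRC1, FAM83D and PIF1 were higher in all 4. Without PIF1 and KIF20A these were 11 lower and 10 higher of 38. The share of all genes called in all 4 lines was not counted. In fits on only the groups compared 10 members were lower and 6 higher in all 4 lines, with 7 higher in WT. Without the outlying libraries the lower counts were 19 in vector, 18 in D162R R234D and 17 in SxxS. Arsenite values lay wholly below untreated values in all 4 lines for 13 of 40 members and wholly above for 11, against 18.8% and 16.8% of all genes. Between the oxidants, 19 of 38 lay wholly above peroxide in every line and 3 wholly below, against 13% in each direction. The 3 were CDK1, CCNB1 and CENPA.

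**Figure D5:**
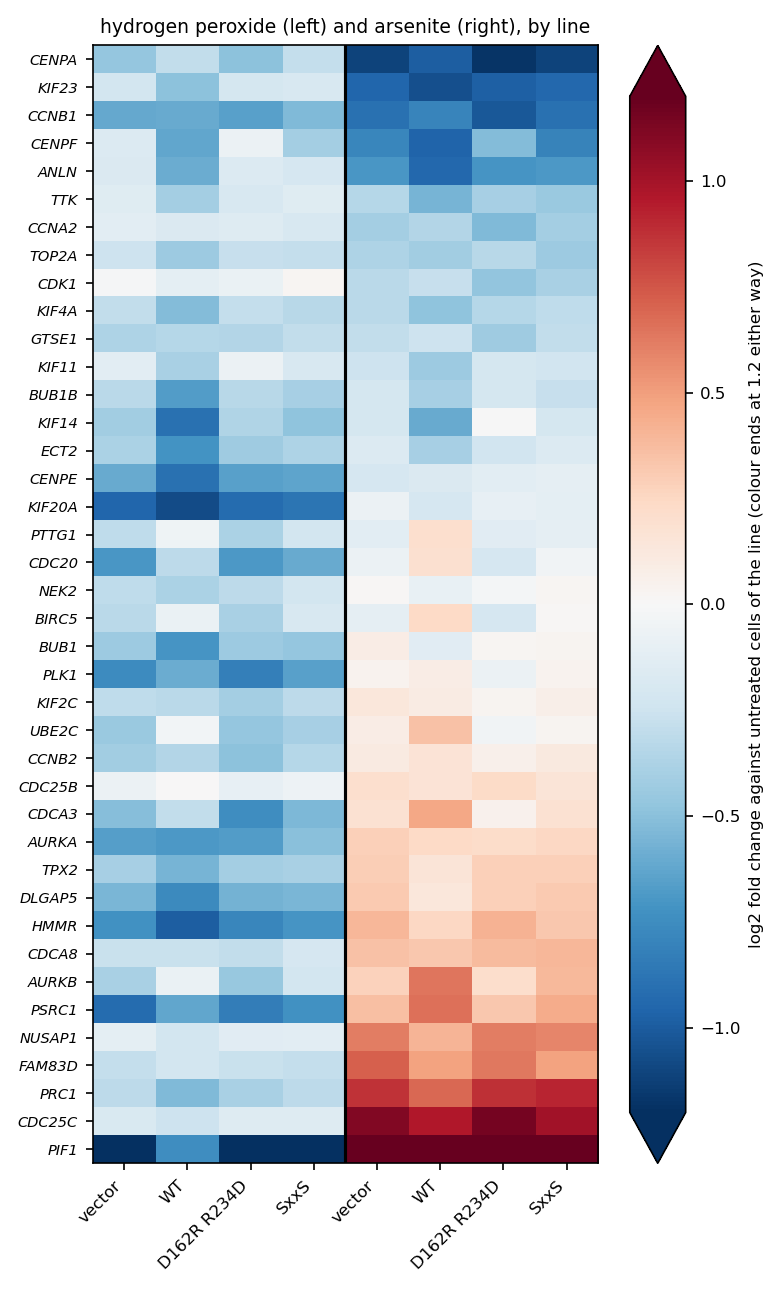
Log2 fold change against untreated cells of the same line (colour, ending at 1.2 either way) for 40 members (rows, ordered by the arsenite mean) in 4 lines (columns) with peroxide on the left and arsenite on the right. Peroxide columns are blue for nearly all genes, arsenite columns run from blue to red, and the WT columns stand apart for genes such as KIF14 and UBE2C.

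No member was called in the test of whether the peroxide response, the arsenite response or their difference depends on the line. At the adjusted threshold 0.685%, 0% and 0.289% of all genes were called. An unadjusted p under 0.05 was reached by 5, 3 and 2 of 40 members, and by 1970, 1432 and 1352 of all 22486 genes. DESeq2 called 0, 0 and 1 member, the 1 being CDK1 in the difference between the oxidants. Without the outlying libraries AURKA and FAM83D were called in that difference. In untreated cells, 0 members differed between the vector line and WT, D162R R234D or SxxS, where 0.196%, 0.0267% and 0.0178% of all genes were called. An unadjusted p under 0.05 was reached by 1, 1 and 0 members, and by 1574, 702 and 744 of all 22486 genes. DESeq2 called 0 members in each, and the members' log2 differences spanned -0.16 to 0.29.

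Genes of the same processes that are not on the list were counted in the same fit. Of 57 other mitosis genes (kinetochore, condensin, kinesin and cytokinesis genes), 24 were lower and 2 higher with peroxide, with a median of -0.13. With arsenite 27 were lower and 22 higher. The shares of all genes were 5.3% lower and 6.78% higher with peroxide, and 31.5% lower and 37.4% higher with arsenite. The largest falls with peroxide were in DEPDC1 (-0.65), SPAG5 (-0.45) and SGO2 (-0.44), and the 2 rises were SKA1 (0.12) and CENPO (0.08). With arsenite FBXO5, an inhibitor of the anaphase-promoting complex, fell most (-1.77), followed by ASPM (-1.23) and KNL1 (-0.995), and TROAP (0.80), MAD1L1 (0.72) and NDC80 (0.71) rose most.

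Of 25 regulators of these genes and of CDK1, 1 was lower and 7 higher with peroxide, where 5.3% and 6.78% of all genes were. With arsenite 10 were lower and 11 higher, near the shares of all genes (31.5% and 37.4%). CDKN1A, the CDK inhibitor p21, rose with both (0.98 with peroxide and 0.87 with arsenite). GADD45A (0.66) and BTG2 (0.48) were the next peroxide rises, and CHEK2 (-0.11) the fall. With arsenite NFYA, a subunit of the factor that binds CCAAT, fell by 1.38, RBL1 by 0.90 and FZR1 by 0.65, while the MuvB subunits LIN37 and LIN52 rose by 1.17 and 0.95. Overlapping genes share 54.0% of the exon bases of LIN37. Other subunits moved either way. From untreated to arsenite, the median CPM went from 39.4 to 59.4 for LIN9, 30.8 to 39.2 for LIN54 and 564.7 to 373.0 for RBBP4. It went from 24.9 to 18.9 for NFYB and 57.8 to 69.0 for NFYC. FOXM1 stood at 0.001 (adjusted p = 0.988) with peroxide and 0.03 (adjusted p = 0.313) with arsenite. MYBL2 rose with both (0.19 and 0.22), and WEE1, the kinase that restrains CDK1, measured -0.10 (adjusted p = 0.278) and 0.10 (adjusted p = 0.133).

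G1/S and replication genes were mostly higher with peroxide. Of 30, 20 were higher and 10 were not called, where 6.78% of all genes were higher. Their median was 0.11, and E2F2 (0.46), CDT1 (0.45) and PCNA (0.27) rose most. With arsenite 17 were lower and 9 higher, where 31.5% of all genes were lower and 37.4% higher. PCNA (-1.01), E2F2 (-0.94) and GINS1 (-0.93) were lowest and ORC1 (0.81), CDT1 (0.64) and GINS3 (0.64) highest. The difference between these lists was not tested.

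The promoter motifs were found at like counts among members that rose and fell with arsenite. TTTGAA was in 9 of the 13 members with a window that were higher with arsenite, in 11 of the 15 that were lower and in 3 of the 6 in neither group. CCAAT was in 12 of 13, 12 of 15 and 6 of 6. At least 1 CHR form was in 12 of 13, 14 of 15 and 5 of 6, and these counts are a description of the letters in the windows.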

How the data were processed

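RNA was sequenced by the study as strand-specific paired-end libraries on a DNBseq platform, and the authors aligned reads to GRCh38 with qAlign of QuasR. The deposited values are raw counts per gene for 36 libraries, not normalized, and whether both mates or strand were counted is not given in the sources used here. Of 61587 identifiers, 61369 matched a symbol in GENCODE 44. The 40 members and all gene lists were chosen with earlier results of these data known.

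Counts were analysed with edgeR 4.0.16 (TMM, a mean per group, robust quasi-likelihood test) on R 4.3.3, with DESeq2 1.42.0 as an alternative. Genes needed 10 counts over the 3 untreated vector libraries, the filter of the study, and p-values were adjusted over all 22486 genes tested. Contrasts were averaged over the 4 lines, taken within lines, or tested for interaction with line. Deviations of same-numbered libraries from their group means correlated above 0.1 in all 3 untreated and peroxide pairs of D162R R234D (r from 0.127 to 0.315). In no other comparison did all 3 pairs do so. The labels state no pairing, the 3 deviations of a group are not independent, and whether these libraries were paired was not tested. Library sizes (42072410 to 174119002 counts) leave counting error small for the members other than PIF1, whose lowest count in the untreated vector libraries was 1289. For PIF1 the lowest count there was 97, and with peroxide its level fell further, to as little as 0.646 CPM, so its counting error is larger. On simulated counts for the peroxide contrast (22486 genes), changes were planted in 66 or 67 genes per size, all with a mean count of at least 100. Of these, 49.3% of changes of 0.25, 89.6% of 0.5 and 100% of 1 (log2) were called. A change of 1 was also planted in WT peroxide alone in 200 other genes, of which 84% were called in the interaction test. The averaged contrast made 287 calls, which include calls among these 200 genes. Outside all planted genes 15 calls were made, and these were the ones counted as false. No simulated library was made to stand apart as the 2 outlying WT libraries do, so the rates do not cover that case. All members are named. Values of every library are given for the members with the largest and the smallest difference between oxidants per role, and as ranges for the others. Of other lists, the 3 largest rises and falls are named, with FOXM1, MYBL2, CDKN1A and WEE1.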

Additional observations from a re-analysis of the deposited data

Results flagged for a closer look

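CDC20 moved apart between lines with arsenite. Every arsenite library lay below every untreated library in vector (log2 fold change -0.07) and in D162R R234D (-0.20), and every arsenite library lay above every untreated library in WT (0.19). In edgeR's quasi-likelihood test the difference between lines had an adjusted p = 0.728 (0.0274 before Benjamini-Hochberg adjustment over all genes), and in the fit on all libraries none of the lines passed the threshold alone, with adjusted p = 0.529 in vector, 0.0627 in D162R R234D and 0.0642 in WT. DESeq2 called the fall in D162R R234D (-0.22, adjusted p = 0.039) and gave the difference between lines an adjusted p = 0.445. WT arsenite replicate 1, which stands apart from its replicates, held 356 CPM of CDC20 against 279.8 and 278.1 CPM in the other 2. Without it the WT value was 0.06 (adjusted p = 0.563), D162R R234D was called lower (-0.20, adjusted p = 0.0251), and the difference between lines had an adjusted p = 1 in edgeR's test. Without both outlying WT libraries, vector (-0.09, adjusted p = 0.0377) and D162R R234D (-0.22, adjusted p = 7.27e-06) were called lower, WT stood at 0.04 (adjusted p = 0.477), and the difference between lines had an adjusted p = 0.112 by the same edgeR test (0.000858 before adjustment). The part of that library in the WT value was not tested beyond leaving it out.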

How the results depend on the processing

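The counts averaged over the lines stayed within 1.5 times of those given, in the same direction, under all 9 alternatives tried and with each of 36 libraries left out in turn. Leaving out 1 library gave 33 to 36 members lower with peroxide, 16 to 17 lower and 15 to 17 higher with arsenite, and 9 to 10 lower and 24 to 26 higher with arsenite than with peroxide. Within lines it gave 14 to 25 lower with peroxide in vector, 22 to 32 in WT, 16 to 25 in D162R R234D and 13 to 24 in SxxS. The same omissions gave 10 to 13 lower and 12 to 15 higher with arsenite in vector, 12 to 16 and 12 to 18 in WT, 11 to 14 and 11 to 13 in D162R R234D, and 10 to 13 and 12 to 14 in SxxS. The interaction and untreated line comparisons stayed at 0. The median of all genes moved by at most 0.038 from 0 under other scalings. The number called lower with peroxide and higher with arsenite was 14 and ran from 12 to 15 over the 9 alternatives.

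Without both outlying WT libraries, members lower with peroxide numbered 34 in vector, 34 in D162R R234D and 36 in SxxS, and those lower with arsenite 19, 18 and 17. That setting called 2 in the interaction for arsenite against peroxide (AURKA and FAM83D) and 1 higher in untreated WT (DLGAP5). Fits on only the groups compared gave 36 lower in vector, 0 in WT and 35 in SxxS with peroxide (24 in D162R R234D), 19 and 18 lower in vector and SxxS and 7 higher in WT with arsenite, and 1 lower in untreated SxxS (BIRC5). Without a filter 11 were lower with peroxide in SxxS, and DESeq2 called 1 interaction (CDK1). The cause of these shifts was not tested.

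Same-numbered libraries correlated above 0.1 in 7 of 36 pairs, and in every pair of a comparison only for untreated and peroxide libraries of D162R R234D. The labels give the samples of a comparison only a shared number, and a pairing was not tested. With the replicate block in the fit on all libraries, 34 members were lower with peroxide, 16 lower and 16 higher with arsenite, and 9 lower and 25 higher between the oxidants, and 18 were lower with peroxide in D162R R234D. A fit on the untreated and peroxide libraries of that line with the replicate block, chosen after seeing the data, gave 32.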
